A study of Dunaliella tertiolecta with 6 samples.

Results

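The histone genes of the unicellular green alga Dunaliella tertiolecta were taken as the genes whose name in the deposited annotation starts with HTA, HTB, HTR, HFO, HON, HAV or HTV followed by a digit. The rule found 39 of the 14354 genes in the deposited expression table, 3449 of which carry a name. They were 12 HTA genes (histone H2A), 6 HTB genes (H2B), 10 HFO genes (H4), 6 HON genes (the linker histone H1), 2 HAV genes and 1 HTV gene (named as histone variants), and 2 HTR genes (the symbol used for H3). The annotation does not say which histone the HAV and HTV genes are variants of.

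RNA was measured in 6 libraries of wild-type strain UTEX LB 999, 3 from flasks with 0 µM added iron and 3 from flasks with 1.5 µM added iron. Both groups were vegetative cells in liquid medium with 2 M NaCl, shaken at 140 rpm under constant light of 100 µE per square metre and second at 24 °C. The labels give a time of 2 d for every library, and a growth field in the same labels gives 3 days. Whether flasks of one group came from separate precultures is not stated, and p-values then cover only the variation from flask to flask. The RNA was poly(A)-selected and read as 50 nt single ends, and the values are FPKM, which scale the reads of a gene by its length and by the mapped reads of the library and so allow genes to be set side by side. In a bulk sample, fewer cells with a transcript and less of it per cell cannot be told apart.

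Histones H2A, H2B, H3 and H4 form the protein core around which DNA is wound in the nucleosome, and H1 binds the DNA between nucleosomes. Most copies of these genes in animals, plants and green algae are made when DNA is replicated, whereas variants can be made at any time and replace the standard histone at particular sites. In the green algae Chlamydomonas and Volvox, H2A genes are paired head to head with H2B genes and H3 genes with H4 genes, so that a short stretch of DNA lies between both starts. In animals the replication-type messages end in a stem-loop and have no poly(A) tail, and those of flowering plants are polyadenylated. Which form the histone messages of Dunaliella take was not measured here, so a poly(A)-selected level may leave out some of the RNA.

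The 2 HTR genes went against their symbol. HTR2A has a coding length of 3252 nt in 21 exons (scaffold_10, 6878267 to 6900037, plus strand) and HTR2B one of 3909 nt in 20 exons (scaffold_02, 10911731 to 10929428, minus strand), where the other 37 genes have 267 to 639 nt. In human the same symbols name serotonin receptors, and the annotation gives no product for either gene. Both are therefore kept apart below, and no gene of histone size carried the symbol for H3.

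The other 37 genes were short and mostly without introns. All 12 HTA genes had a coding length of 402 nt and all 6 HTB genes one of 369 nt, each in 1 exon. Of the HFO genes 7 of 10 had 312 nt in 1 exon, while HFO2 had 267 nt in 2 exons, HFO4 477 nt in 2 exons and HFO10 465 nt in 3 exons. The 6 HON genes had 609 to 639 nt in 1 exon. The variants differed from all of these, with 456 nt in 5 exons for both HAV genes and 450 nt in 6 exons for HTV3. In total 31 of the 37 had a single coding exon, against 11.0% of all annotated genes.

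Most of the family sat on one scaffold. On scaffold_12, 31 of the 39 genes lay between 1918244 and 5201651, a stretch of 3.28 Mb that holds 284 genes. There, 9 HTA, 5 HTB, 9 HFO, all 6 HON and both HAV genes were interspersed with other genes. A further 5 genes (HTA1, HTA2, HTA3, HTB1 and HFO1) lay within 129 kb on scaffold_03, from 14474516 to 14603168. HTV3 stood alone on scaffold_10 (7290511 to 7292443, plus strand), away from every other gene of histone size. With neighbours joined when they were within 20 kb, 21 genes fell into 9 clusters of at most 3 genes, such as HON4, HTB2 and HTA6 (scaffold_12, 2773339 to 2781559) or HTA11, HON2 and HFO10 (scaffold_12, 5140585 to 5173748). Within 5 kb only 12 genes had a neighbour, and these were the 6 pairs of an HTA and an HTB gene.

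**Figure D1:**
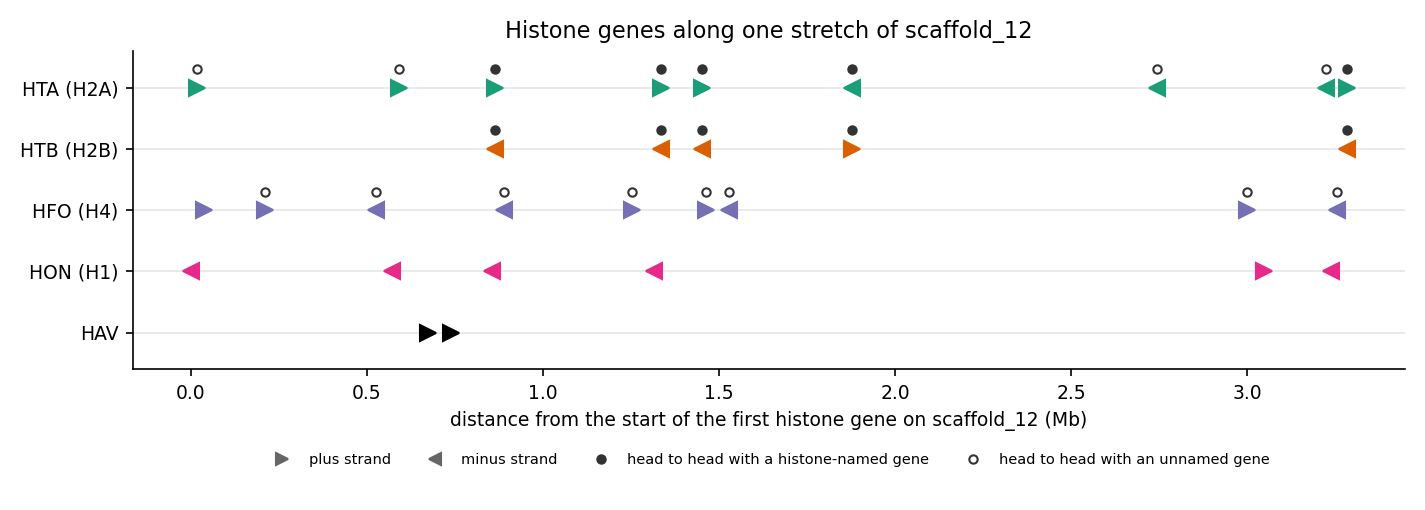
Map of the 31 histone genes on scaffold_12, with one row per class and the distance in Mb from the start of the first of them on the horizontal axis; triangles point in the direction of transcription and circles mark genes that start head to head with a neighbour. Classes are interspersed over 3.28 Mb, and no HON or HAV gene has a circle.

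The HTA, HTB and HFO genes were arranged in head-to-head pairs. A head-to-head neighbour within 1 kb was found for 11 of 12 HTA genes, all 6 HTB genes and 9 of 10 HFO genes, and for no HON, HAV, HTV or HTR gene. Over all 14268 nuclear genes 39.5% had such a neighbour. In 6 pairs both genes were named, an HTA gene beside an HTB gene, with 255 to 273 nt between their coding starts. The neighbour of 5 further HTA genes was an unnamed single-exon gene of 369 nt, the coding length of the HTB genes. The neighbour of all 9 paired HFO genes was an unnamed single-exon gene of 411 nt, at 245 to 267 nt. The unpaired genes were HTA2 and HFO2. The annotation gives the unnamed neighbours no product, so they are reported by length only.

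Some copies could not be told apart. HFO3 and HFO9 had the same FPKM in all 6 libraries. HTB2 and HTB5 differed by at most 0.14%, HON2 and HON6 by at most 0.491% and HTA6 and HTA9 by at most 4.60% in any library. No source used here says how reads that fit several copies were shared, so the values of these 4 pairs, and more generally of single copies of one length, are uncertain. A sum over all copies of one length would not depend on how reads were split among them, provided that none were discarded. The class sums below cover named genes only. Unnamed genes of HTB or HFO length, which could not be identified, are outside them.

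In the poly(A)-selected RNA, the copies of H2A, H2B and H4 had low to middling levels and the variants high ones. Any message without a poly(A) tail would be understated in this contrast. Over the 6 libraries, 23 of the 37 genes of histone size had a mean under 10 FPKM, 12 lay between, and the 2 HAV genes were above 100 FPKM. HAV2A averaged 276 FPKM, more than 97.6% of all genes in the table, and HAV2B averaged 220 FPKM, more than 97.0% of them. HTV3 averaged 88.2 FPKM. Among the standard copies HON2 at 51.8 FPKM and HON6 at 51.6 FPKM were the most abundant. HTA11 led the HTA genes at 27.6 FPKM, above the other 4 HON genes (9.59 to 25.5 FPKM). HFO8 led the HFO genes at 9.37 FPKM and HTB1 the HTB genes at 6.56 FPKM, both close to the median of 7.91 FPKM over all genes. HFO1 (0.125 FPKM) and HFO4 (0.72 FPKM) were nearly silent.

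The genes with several exons included the highest levels, but not only these. The 31 single-exon genes ranged from 0.125 to 51.8 FPKM with a median of 7.19 FPKM, and the 6 genes with 2 or more exons from 0.72 to 276 FPKM with a median of 45.3 FPKM. The multi-exon HFO2, HFO10 and HFO4 stayed at 2.37, 2.36 and 0.72 FPKM, among the low copies, so the high levels belonged to the 3 variant genes.

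**Figure D2:**
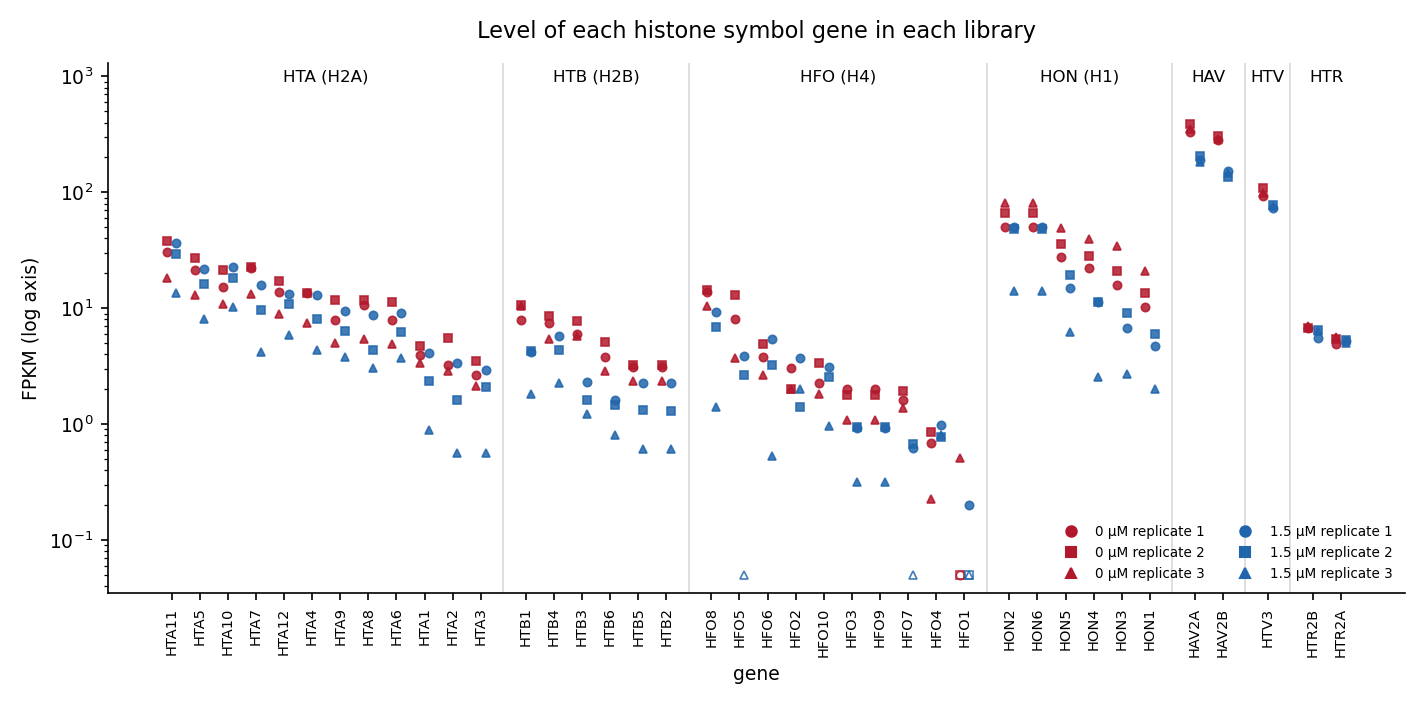
FPKM (log axis) of each of the 39 genes in each of the 6 libraries, with 0 µM added iron in red to the left of 1.5 µM in blue, circles, squares and triangles for replicates 1, 2 and 3, and open symbols at the bottom for values under 0.05 FPKM. Within each library HAV2A, HAV2B and HTV3 lie above all other genes shown, and replicate 3 at 1.5 µM (blue triangle) is the lowest of its group for most HTA, HTB, HFO and HON genes.

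Within the pairs, the HTA gene was mostly the higher one and the HFO gene the lower one. In 5 of 6 named pairs the HTA gene was above its HTB partner in all 6 libraries, and the ratio of the means ran from 0.354 to 4.51 with a median of 3.38. The exception was HTA3, at 2.32 FPKM beside HTB1 at 6.56 FPKM on scaffold_03. The HTA genes beside an unnamed 369-nt gene behaved much the same, with ratios from 0.603 to 7.27. HFO genes stood the other way round: 8 of 9 had a lower mean than their 411-nt neighbour, whose means ran from 5.10 to 14.4 FPKM. The extreme was HFO1, whose neighbour averaged 14.4 FPKM. Genes that share one short stretch between their starts thus differed widely in measured level.

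**Figure D3:**
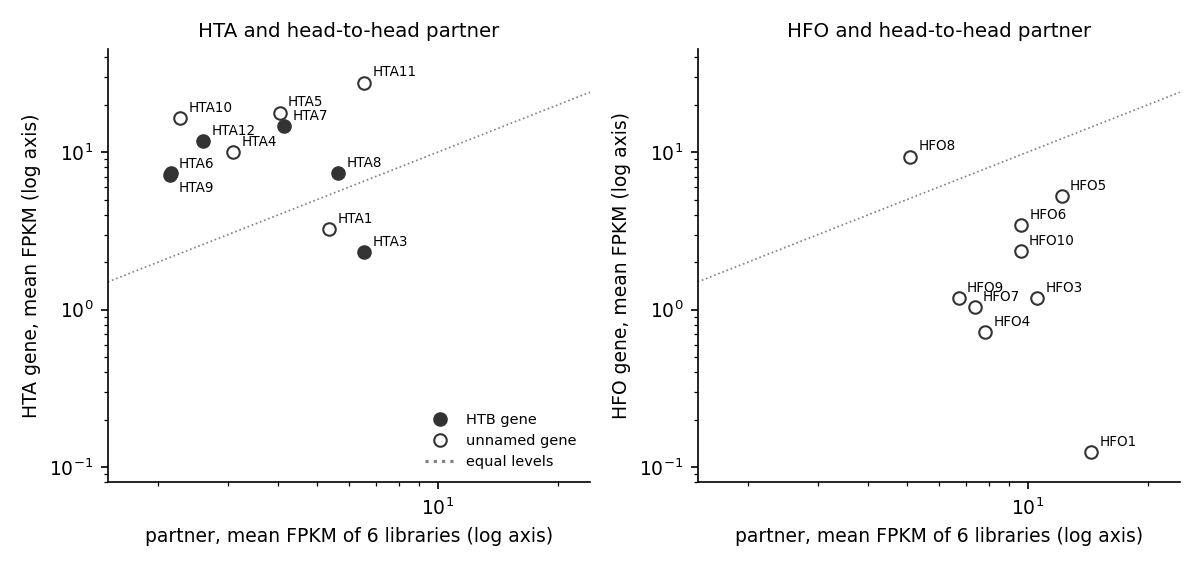
Mean FPKM over 6 libraries of each HTA gene (left) and HFO gene (right) against that of its head-to-head partner, both on log axes, with filled circles for HTB partners, open circles for unnamed partners and a dotted line at equal levels. Of 11 HTA genes 9 lie above the line, and of 9 HFO genes only HFO8 does.

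The libraries of one group differed more for the histone genes than for most tested genes. At 1.5 µM, replicate 3 was the lowest library for 32 of the 34 HTA, HTB, HFO and HON genes, against 28.7% of all tested genes, and HFO1, HFO5 and HFO7 were listed at 0 there. At 0 µM, replicate 3 was the lowest for 26 of the 28 HTA, HTB and HFO genes, against 27.2% of all tested genes, but the highest for all 6 HON genes. The unnamed neighbours had low replicate 3 values too. At 1.5 µM it was the lowest library for 5 of 5 of the 369-nt genes and 9 of 9 of the 411-nt genes, and at 0 µM for 4 of 5 and 9 of 9. The median ratio of the highest to the lowest library over these 34 genes was 1.84 at 0 µM and 2.99 at 1.5 µM, against 1.20 and 1.19 over all tested genes. The variant genes varied far less, with a median ratio of 1.13 at 0 µM and 1.12 at 1.5 µM for the HAV genes, and 1.18 at 0 µM and 1.06 at 1.5 µM for HTV3.

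The deviations were set beside those of 2344 other tested genes with 300 to 700 nt of coding sequence. For these, the median deviation of a library from a gene's mean was between -0.02 and 0.08 on the log2 scale. Over the 32 tested HTA, HTB, HFO and HON genes it was 0.39, 0.61 and 0.03 at 0 µM (replicates 1, 2 and 3). At 1.5 µM it was 0.16, -0.19 and -0.96. The classes differed at 0 µM replicate 3, with -0.29 for HTA, 0.20 for HTB, -0.01 for HFO and 1.25 for HON. What sets the replicates apart for these genes was not tested. Since replicates of one number also deviated together over all genes, counts with the replicate as a block and with replicates 1 and 2 only are given beside the main ones where they differ.

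The comparison of 0 µM with 1.5 µM added iron asks which histone genes change when no iron is supplied. No histone gene passed as lower without added iron, and 11 of the 37 tested passed as higher (limma on log2(FPKM + 1), p adjusted over 11273 genes, threshold 0.05). The 11 were the 3 variants HAV2A, HAV2B and HTV3, the linker histone genes HON1, HON3, HON4 and HON5, the H2B genes HTB1, HTB3 and HTB6, and the H4 gene HFO7. No HTA gene passed. Over all genes tested, 11.6% were called higher and 18.7% lower. At an unadjusted p under 0.05, 19 of the 37 were higher and 0 lower, against 17.3% and 24.9% of all genes. These 37 are the 39 genes without HFO1 and HFO4, so they include the 2 HTR genes. Their median log2 fold change was 0.72, and 36 of 37 were above 0. The median over all genes was -0.03. Without the HTR genes the median was 0.76, and 34 of 35 were above 0. HFO1 and HFO4 were under the mean of 1 FPKM required for the test. HFO3, HFO7 and HFO9 passed that requirement only through the 0 µM libraries, where alone their mean was at least 1 FPKM. All of these are among the 19, and HFO7 is among the 11, so part of both counts was favoured by the requirement.

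In 17 of the 39 genes, HTR2B included, all 3 libraries at 0 µM lay above all 3 at 1.5 µM, and in none did they lie below. Without the HTR genes it was 16 of 37. Among tested genes such a separation happened for 19.6% upwards and 28.0% downwards. The 39 and the 37 also hold the untested HFO1 and HFO4, whose groups overlapped. Both counts include HFO3, HFO7 and HFO9, which entered the test only through their 0 µM libraries. They also count HFO3 and HFO9, and HTB2 and HTB5, as separate genes, though these copies could not be told apart. With the replicate as a block 20 histone genes were called higher (14.3% of all genes), HFO3, HFO7, HFO9, HTB2 and HTB5 among them. With replicates 1 and 2 only there were 11 (4.71% of all genes higher, 9.83% lower), of which 9 were among the 11 above. HON5 and HTV3 were not called there, and HFO5 and HFO8 were. Without 1.5 µM replicate 3 there were 11 (7.42% of all genes), with a median of 0.42, and without 1.5 µM replicate 1 there were 20 (9.11%). With the FPKM sums of the libraries set equal, which moves the median of all genes to 0.17, there were 21 (28.3% of all genes higher, 9.64% lower). HTR2B is among the 21, and 20 remain without the HTR genes. HFO3, HFO7, HFO9, HTB2 and HTB5 are among the 21 as well. The 7 genes HTB1, HTB3, HTB6, HON1, HON3, HAV2A and HAV2B were called in each of the 16 alternatives in which they were tested.

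**Figure D4:**
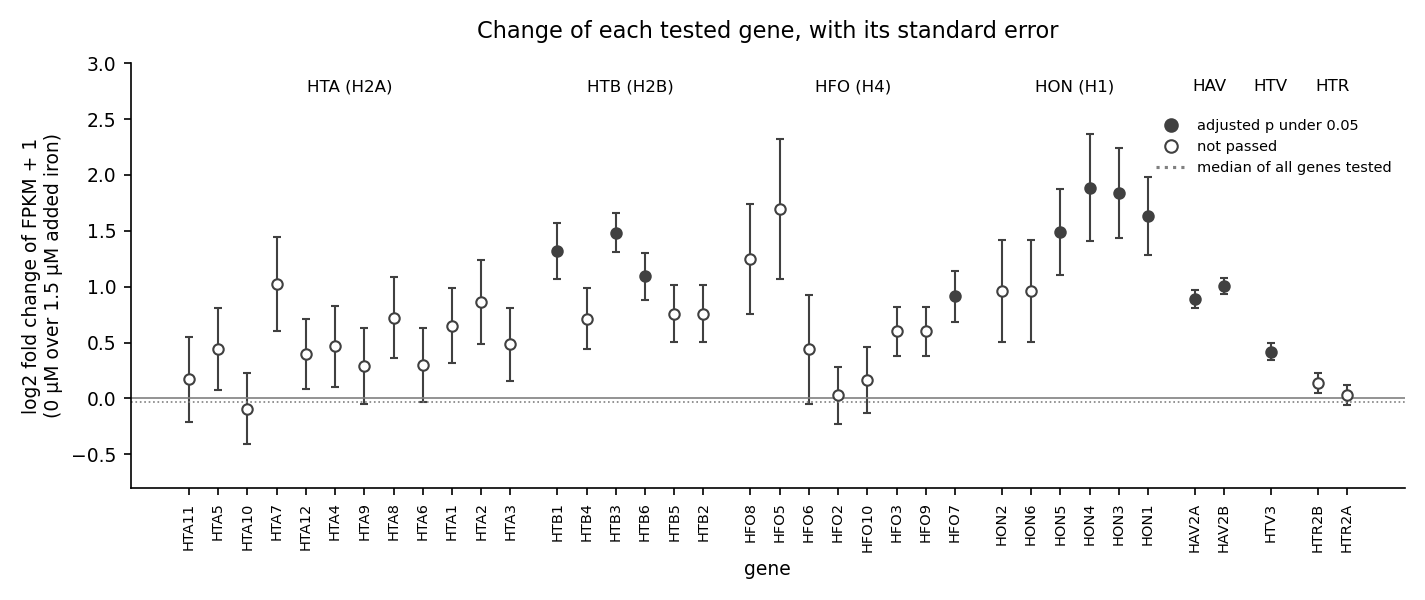
log2 fold change on the log2(FPKM + 1) scale, 0 µM over 1.5 µM added iron, with its standard error for the 37 tested genes, filled where the limma adjusted p is under 0.05; the dotted line is the median of all genes tested. All points but HTA10 are above 0, HTB, HON and HAV genes hold 9 of the 11 filled points, and the HAV genes have the smallest error bars of these.

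The HTA genes of H2A, which pairs with H2B in the nucleosome core, showed no call in the main fit. HTA11 had 30.3, 37.9 and 18.4 FPKM at 0 µM, against 36.2, 29.4 and 13.7 FPKM at 1.5 µM. HTA5 had 21.3, 26.9 and 13.1 FPKM at 0 µM, against 21.7, 16.0 and 8.07 FPKM at 1.5 µM. For both genes the groups overlapped, as they did for all 12 HTA genes. Log2 fold changes ran from -0.09 for HTA10 to 1.02 for HTA7, with adjusted p from 0.105 to 0.851, and 1 of 12 had an unadjusted p under 0.05. The sign of HTA10 was positive (0.12) with equal sums, and that of HTA11 negative (-0.23) without 1.5 µM replicate 3. With the replicate as a block HTA7 (adjusted p = 0.0105) and HTA8 (0.0302) passed (14.3% of all genes higher). Without 1.5 µM replicate 1, HTA1 (adjusted p = 0.0342), HTA2 (0.0285), HTA7 (0.0275) and HTA8 (0.0435) passed (9.11% of all genes higher). With equal sums HTA2 (0.0483) and HTA7 (0.0344) passed (28.3% of all genes higher). With replicates 1 and 2 only, and without 1.5 µM replicate 3, 0 of 12 passed. The summed HTA level was 153, 188 and 95.5 FPKM at 0 µM and 161, 116 and 59.0 FPKM at 1.5 µM. Its ratio within replicate numbers was 0.953, 1.63 and 1.62.

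H2B was higher without added iron in 3 of 6 genes (11.6% of all genes), and in all 6 with the replicate as a block (14.3% of all genes). HTB3 had 6.04, 7.78 and 5.79 FPKM at 0 µM, against 2.31, 1.61 and 1.23 FPKM at 1.5 µM (log2 fold change 1.48, SE 0.17, limma adjusted p = 0.000746). HTB1 had 7.99, 10.7 and 10.4 FPKM at 0 µM, against 4.18, 4.25 and 1.83 FPKM at 1.5 µM (1.32, SE 0.25, limma adjusted p = 0.00693). HTB6 had 3.77, 5.09 and 2.85 FPKM at 0 µM, against 1.61, 1.45 and 0.803 FPKM at 1.5 µM (1.09, SE 0.21, limma adjusted p = 0.00791). In each of these the lowest 0 µM library was above the highest 1.5 µM library, although every level is low. HTB4 had 7.51, 8.56 and 5.40 FPKM at 0 µM, against 5.78, 4.36 and 2.25 FPKM at 1.5 µM, with an overlap in 1 library each, and did not pass (0.71, limma adjusted p = 0.0913). HTB2 and HTB5, the copies that could not be told apart, each had a log2 fold change of 0.76 (limma adjusted p = 0.0578 for HTB2). The summed HTB level was 33.1 ± 4.89 FPKM at 0 µM and 13.3 ± 5.58 FPKM at 1.5 µM (SD, n = 3 each), 2.48-fold higher without added iron, with no overlap.

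In the named pairs the ratio of HTA to HTB was lower without added iron. In the 6 named pairs, the summed HTA level was 2.07, 2.03 and 1.36 times the summed HTB level at 0 µM, against 3.23, 2.79 and 2.88 times at 1.5 µM. The groups did not overlap, and the 1.5 µM value was the larger within each replicate number, replicate 3 included. These sums leave out the other HTA genes and the unnamed 369-nt genes, so they can depend on how shared reads were split. The 5 unnamed 369-nt genes beside HTA genes were measured in the same fit: 4 were called higher without added iron (5 with the replicate as a block), with log2 fold changes of 0.81 to 1.54, while none of their 5 HTA neighbours was called. Over all genes 11.6% were called higher, and 14.3% with the block. The difference between partners was not tested.

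H4 was called in 1 of 8 tested genes, HFO7 (11.6% of all genes). With the replicate as a block it was called in 5 (14.3% of all genes), HFO3, HFO5, HFO7, HFO8 and HFO9. HFO3, HFO7 and HFO9 entered the test only through their 0 µM libraries, which favours a call as higher, and HFO3 and HFO9 hold one set of values, so these counts are not support for a change of the class. HFO8, the most abundant, had 13.9, 14.2 and 10.6 FPKM at 0 µM, against 9.20, 6.94 and 1.41 FPKM at 1.5 µM (log2 fold change 1.25, SE 0.49, limma adjusted p = 0.0952; with the block, 0.0289). HFO5 had 8.07, 13.1 and 3.71 FPKM at 0 µM, against 3.90, 2.64 and 0 FPKM at 1.5 µM (1.69, SE 0.63, limma adjusted p = 0.0809; with the block, 0.00543). HFO8 did not overlap between groups and HFO5 did. With replicates 1 and 2 only both passed, HFO8 at 0.74 (limma adjusted p = 0.0428) and HFO5 at 1.42 (0.0347). HFO7, which passed, had 1.63, 1.92 and 1.38 FPKM at 0 µM, against 0.626, 0.67 and 0 FPKM at 1.5 µM (0.92, SE 0.23, limma adjusted p = 0.0213). That call rests on values near 1 FPKM. It was lost with a pseudocount of 0.1 FPKM (adjusted p = 0.0785) and without 0 µM replicate 1 (0.0625) or 2 (0.0765). The multi-exon HFO2 and HFO10 had log2 fold changes of 0.03 and 0.17. The summed HFO level was 37.4, 44.0 and 25.0 FPKM at 0 µM and 29.0, 20.1 and 6.38 FPKM at 1.5 µM, with an overlap. Of the 9 unnamed 411-nt neighbours none was called (log2 fold changes 0.33 to 0.90, limma adjusted p from 0.0833 to 0.564), and 5 were with the block.

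H1 was called higher without added iron in 4 of 6 genes, also with the replicate as a block, and in 3 with replicates 1 and 2 only. Over all genes 11.6%, 14.3% and 4.71% were called higher in these fits. HON4 had 22.4, 28.0 and 39.9 FPKM at 0 µM, against 11.4, 11.4 and 2.57 FPKM at 1.5 µM (log2 fold change 1.89, SE 0.48, limma adjusted p = 0.0231). HON3 had 15.9, 21.0 and 34.3 FPKM at 0 µM, against 6.73, 9.09 and 2.69 FPKM at 1.5 µM (1.84, SE 0.40, limma adjusted p = 0.0127). HON1 had 10.2, 13.6 and 21.0 FPKM at 0 µM, against 4.72, 5.96 and 2.02 FPKM at 1.5 µM (1.64, SE 0.35, limma adjusted p = 0.0118). In all of these the groups were apart, with replicate 3 the highest library at 0 µM and the lowest at 1.5 µM. HON5 had 27.5, 35.7 and 49.0 FPKM at 0 µM, against 15.1, 19.5 and 6.21 FPKM at 1.5 µM (1.49, SE 0.38, limma adjusted p = 0.0246). With replicates 1 and 2 only the changes were smaller but HON4 (1.07, limma adjusted p = 0.0126), HON3 (1.13, 0.0295) and HON1 (1.02, 0.0309) passed and HON5 did not (0.83, 0.0514). The calls of HON4 and HON5 were also lost without 0 µM replicate 2 (adjusted p = 0.0616 and 0.0661) or 3 (0.0811 and 0.0843).

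The most abundant H1 copies did not pass. HON2 had 50.3, 66.8 and 80.8 FPKM at 0 µM, against 50.7, 48.2 and 14.1 FPKM at 1.5 µM (log2 fold change 0.96, limma adjusted p = 0.152). HON6, which could not be told apart from it, had 50.0, 66.6 and 80.6 FPKM at 0 µM, against 50.4, 48.1 and 14.1 FPKM at 1.5 µM (0.96, limma adjusted p = 0.153). In replicate 1 the levels at both iron supplies were nearly equal, and with replicates 1 and 2 only the log2 fold change was 0.23 for HON2. The summed HON level was 238 ± 64.9 FPKM at 0 µM and 108 ± 57.1 FPKM at 1.5 µM (SD, n = 3 each). Its ratio within replicate numbers was 1.27, 1.63 and 7.33, so replicate 3 carried most of the 2.21-fold difference.

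**Figure D5:**
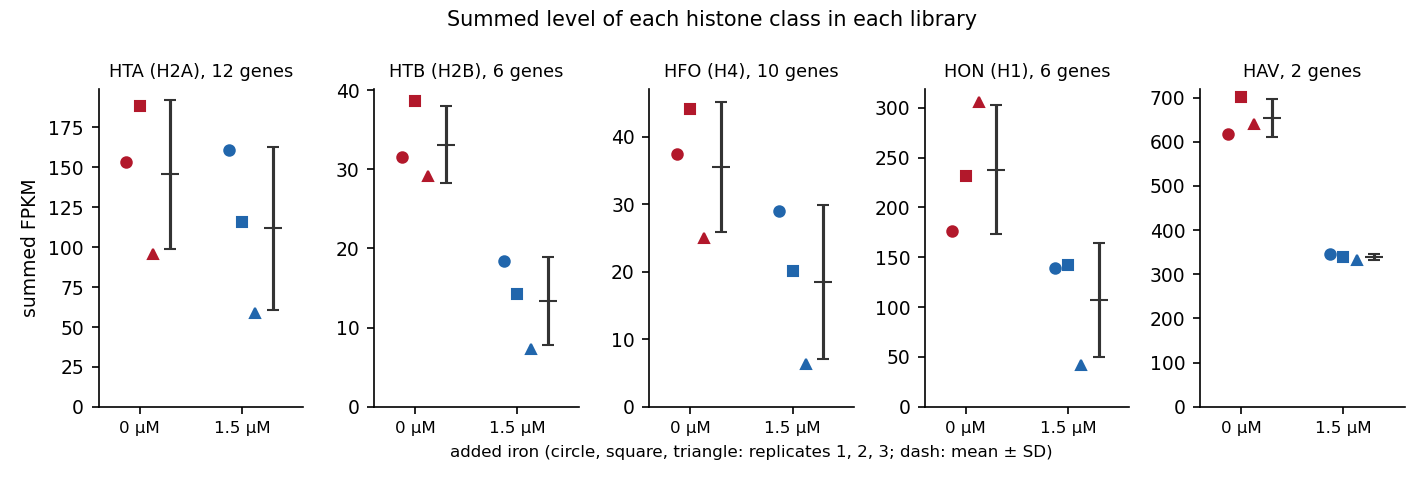
Summed FPKM of the HTA, HTB, HFO, HON and HAV genes in each library (points), with mean ± SD beside them, 0 µM added iron on the left and 1.5 µM on the right of each panel. HTB, HON and HAV do not overlap between groups, HTA and HFO do, and the 1.5 µM HAV points lie between 332 and 345 FPKM.

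The variants gave the most even difference. HAV2A had 334, 392 and 349 FPKM at 0 µM, against 191, 204 and 184 FPKM at 1.5 µM (log2 fold change 0.89, SE 0.08, limma adjusted p = 0.00019). HAV2B had 284, 309 and 290 FPKM at 0 µM, against 154, 136 and 148 FPKM at 1.5 µM (1.01, SE 0.07, limma adjusted p = 5.82e-05). Neither gene overlapped between groups, and each ratio within a replicate number lay between 1.75 and 2.27. HTV3 had 93.6, 110 and 99.6 FPKM at 0 µM, against 72.7, 77.2 and 76.0 FPKM at 1.5 µM (0.42, SE 0.08, limma adjusted p = 0.00681). HTV3 was higher in every library at 0 µM as well, by a smaller step, and its call was lost with replicates 1 and 2 only (0.43, limma adjusted p = 0.0684).

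The balance of variants to standard copies depended on the replicate. The HAV sum was 4.04, 3.72 and 6.69 times the HTA sum at 0 µM, against 2.15, 2.94 and 5.62 times at 1.5 µM. The groups overlapped, though the 0 µM value was the larger within each replicate number. The 3 variant genes made up 64.1, 61.7 and 61.9% of the FPKM of all 37 genes of histone size at 0 µM, against 54.6, 58.8 and 78.1% at 1.5 µM. The last and highest of these shares was that of 1.5 µM replicate 3, where the 34 standard copies summed to 114 FPKM, against 347 and 292 FPKM in replicates 1 and 2 of that group. The HAV sum there was 332 FPKM, against 345 and 340 FPKM in replicates 1 and 2.

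The 2 HTR genes were not called. HTR2B had 6.76, 6.75 and 7.01 FPKM at 0 µM, against 5.54, 6.46 and 6.37 FPKM at 1.5 µM (log2 fold change 0.14, limma adjusted p = 0.276). HTR2A had 4.89, 5.42 and 5.66 FPKM at 0 µM, against 5.17, 5.31 and 5.06 FPKM at 1.5 µM (0.03, limma adjusted p = 0.817). HTR2B was higher in every 0 µM library by a small margin, and HTR2A overlapped.

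Among the genes that handle histones calls went both ways, where 11.6% of all genes were called higher and 18.7% lower. Of 4 genes for histone chaperones and chromatin assembly, NAP1, a chaperone of H2A and H2B, was higher without added iron (104 ± 3.46 FPKM at 0 µM and 82.3 ± 3.08 FPKM at 1.5 µM, SD, n = 3 each, log2 fold change 0.34, limma adjusted p = 0.00773), and SGA1, whose symbol also names an aminotransferase, was lower (-0.64, limma adjusted p = 0.0124). With replicates 1 and 2 only neither was called (adjusted p = 0.0573 and 0.051). Of 23 genes for histone modifying enzymes 2 were higher and 3 lower, with a median log2 fold change of 0.01, and 1 and 1 with replicates 1 and 2 only. With equal sums the balance turned to 6 higher and 1 lower, with a median of 0.23, where 28.3% of all genes were higher. The histone deacetylase gene HDT1 (-0.52, limma adjusted p = 0.00518) and the acetyltransferase gene HAT4 (-0.35, limma adjusted p = 0.0083) were lower, and with equal sums the calls of HDT1 and HAT4 were lost (adjusted p = 0.0586 and 0.253). The arginine methyltransferase gene PRMT1 was higher (0.26, limma adjusted p = 0.039). LSD1 was lower (-1.06, limma adjusted p = 0.000306), the largest change of this list. It kept its call with equal sums (-0.84, adjusted p = 0.000439) and with replicates 1 and 2 only (-1.03, 0.00691). ATX1, a symbol that also names a copper chaperone, was higher (0.46, limma adjusted p = 0.0105). The symbols LSD1 and ATX1 were treated as ambiguous. Without them 1 of 21 genes was higher and 2 lower, and 0 and 0 with replicates 1 and 2 only.

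Of the genes of DNA replication, the phase in which standard histones are made, more were called higher than lower. Of 41 genes 10 were higher and 1 lower (11.6% and 18.7% of all genes), with a median log2 fold change of 0.19. With the replicate as a block 13 were higher and 0 lower (14.3% of all genes higher), and with replicates 1 and 2 only 2 were higher, RIR2A and RIR2L, and 0 lower (4.71% and 9.83% of all genes). RIR2A, named for the small subunit of ribonucleotide reductase, which makes deoxynucleotides, had 222, 189 and 212 FPKM at 0 µM, against 70.2, 27.8 and 59.5 FPKM at 1.5 µM (2.06, SE 0.31, limma adjusted p = 0.00238). Its groups were far apart, and replicate 2, not 3, was its lowest library in both groups. RIR2B (1.15, limma adjusted p = 0.00716), the clamp loader gene RFC4 (0.42, limma adjusted p = 0.00356) and RFA2 of replication protein A (0.69, limma adjusted p = 0.00982) were higher as well, and with replicates 1 and 2 only were not called (adjusted p = 0.0895, 0.057 and 0.0756). The 1 lower gene, MCM8 (-0.26, limma adjusted p = 0.0452), lost its call with the block. RIR2A, RIR2B and RIR2L, all with ribonucleotide reductase symbols, were among the 10 higher genes. In the main fit none of MCM2 to MCM7, CDC6, CDC45 and CDT1 was called.

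Among 10 cell cycle kinases, cyclins and checkpoint genes 4 were higher and 1 lower (11.6% and 18.7% of all genes). Their median log2 fold change was 0.25. With the replicate as a block 4 were higher and 2 lower, where 1611 and 2362 of all 11273 genes were. The lower gene gained was WEE1 (-0.35, limma adjusted p = 0.0224 with the block and 0.105 in the main fit). With replicates 1 and 2 only 1 was higher, MAD2, and 1 lower, ALK3 (4.71% and 9.83% of all genes). The plant-type cyclin-dependent kinase gene CDKB1, known for its role at mitosis, had 179 ± 2.19 FPKM at 0 µM and 132 ± 10.4 FPKM at 1.5 µM (SD, n = 3 each, 0.43, limma adjusted p = 0.00436). The aurora-like kinase gene ALK2 was higher (0.51, limma adjusted p = 0.00849) and ALK3 lower (-0.70, limma adjusted p = 0.00433). MAD2, of the spindle checkpoint, was also higher (0.42, limma adjusted p = 0.0183). With equal sums 18 of the 41 replication genes were higher and 0 lower, and 7 of the 10 cell cycle genes were higher and 1 lower, where 28.3% of all genes were higher and 9.64% lower.

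As checks of the samples, FLD1 for flavodoxin, which many algae make when iron is scarce, had 8692 to 10306 FPKM at 0 µM and 10.5 to 15.3 FPKM at 1.5 µM. Of 7 genes named as gamete or zygote markers, which should be low in vegetative cells, HAP2 and GEX1 were under 0.3 FPKM in every library and the other 5, with EZY and ZYS symbols, ranged from 1.75 to 157 FPKM. Of these 5, 0 were called higher and 2 lower (11.6% and 18.7% of all genes). The 2 were EZY7 (-0.36, limma adjusted p = 0.0193) and EZY15 (-0.48, limma adjusted p = 0.00789). With equal sums 1 was higher and 1 lower (28.3% and 9.64% of all genes). The summed level of the 7 markers was 235 to 257 FPKM at 0 µM and 281 to 302 FPKM at 1.5 µM. Their part in the histone results was not tested. The FPKM sums of the libraries were 808592 to 898151 at 0 µM and 982304 to 1021467 at 1.5 µM, and the number of reads behind a value is not given, so no counting error can be attached to the low copies.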

How the data were processed

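The values are FPKM per gene and library, deposited by the authors; per the submitters' processing notes STAR 2.4.0j and Cuffdiff 2.0.2 were used, and per the labels the RNA was poly(A)-selected. Coordinates are on the authors' own assembly, and models hold coding sequence only (14351 of 14354 genes had one). FPKM are not counts, and read totals were not used here. No source used here states whether the libraries kept strand.

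Genes with a mean of at least 1 FPKM over 6 libraries were compared as log2(FPKM + 1) with limma 3.58.1 in R 4.3.3 (lmFit, eBayes with trend, two-sided, Benjamini-Hochberg over 11273 genes, threshold 0.05), after the procedure was tested on simulated data. Fold changes on this scale understate those of low genes. Tables and figures were made with Python 3.11.15, pandas 2.3.3 and matplotlib 3.10.9. Low meant a mean under 10 FPKM and abundant at least 100 FPKM. The class of H2A was first set as HTA, HAV and HTV together and was split by symbol, since the annotation names no histone for HAV and HTV.

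Members, lists and tests were chosen with earlier results of these data known. Values in every library are given for the 2 highest members of each class, each called member with a log2 fold change of at least 0.5 and every HAV, HTV and HTR gene. From each other list up to 4 genes with the smallest p are named. SGA1, LSD1, ATX1, MCM8, RIR2L, WEE1, HTA1, HTA2, HTA7, HTA8 and partners with extreme ratios were named after their values were seen. The same holds for MCM2 to MCM7, CDC6, CDC45 and CDT1.

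Each library's deviation from its group mean, over all tested genes, had a correlation of 0.24, 0.26 and 0.17 with that of its namesake in the other group, against -0.22 to -0.01 for unlike numbers. Each deviation is from a mean of 3 libraries, so positive values for namesakes push those for unlike numbers below 0. The main fit has no replicate block and treats the libraries as unpaired. A fit with the replicate number as a block is given beside it, on the strength of the data and not the labels. Alternatives were filters of 0 and 5 FPKM, a pseudocount of 0.1 FPKM, equal FPKM sums, median ratios or quantile normalization as the scaling, the replicate block, each library left out, replicates 1 and 2 only, 1 gene per set of identical values, and other limits for clusters and levels. Centring the libraries within bins of coding length and leaving out the HTR genes were added after the data were seen.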

Additional observations from a re-analysis of the deposited data

How the results depend on the processing

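Against 11 histone genes called with all libraries, 8 to 20 were called with 1 library left out (20 without 1.5 µM replicate 1, 8 without 0 µM replicate 2), 20 with the replicate block and 21 with equal sums, and 8 to 12 under the other alternatives. HTR2B is counted in the 21, and in the 12 found with the length bins. Over all genes, 1303 of 11273 were called higher with all libraries, and 797 to 1283 with 1 library left out. The share was 14.3% with the block and 28.3% with equal sums. Under the other alternatives 531 to 1708 genes were higher. There, the filters and the removal of identical values changed the number tested. The median log2 fold change of the tested histone genes, HTR genes included, stayed positive, between 0.42 and 0.99. With replicates 1 and 2 only, 1639 genes changed in all, against 3408, with fewer samples. Equal sums raised the log2 ratio of the summed levels to 1.18 for HAV, 0.65 for HTV and 0.34 for HTR. Joining neighbours within 5 kb put 12 genes in clusters and within 100 kb 34, and with limits of 5 and 50 FPKM 15 genes were low and 5 abundant.

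Signs turned only for genes that were not called. With 1 library left out, log2 fold changes ran from -0.23 to 0.45 for HTA11, -0.40 to 0.14 for HTA10, -0.00087 to 0.57 for HTA9, -0.15 to 0.89 for HFO6, -0.19 to 0.30 for HFO2, -0.15 to 0.38 for HFO10 and -0.0069 to 0.082 for HTR2A. HTA10 was at 0.12 with equal sums, HFO2 at -0.022 with length bins, and HFO10 at -0.012 and HTR2A at -0.021 with replicates 1 and 2 only. The cause was not tested. HON4 and HON5 lost their calls with no filter (adjusted p = 0.0509 and 0.053). A filter of 5 FPKM removed HTB3, HTB6 and HFO7 from the test. The unknown read depth limits all copies near 1 FPKM.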
